A study of Homo sapiens with 3 samples.

Results

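The 8 E2F transcription factor genes, E2F1 to E2F8, and the pocket protein genes RBL1 (p107) and RBL2 (p130) were taken by symbol from a table of 58735 genes. All 10 were found. RNA was measured by poly(A)-selected sequencing in 3 libraries of RPE-1, a telomerase-immortalised human retinal pigment epithelial line. The labels describe cells with centrin 2 fused to GFP and a PLK4 gene under rtTA control that responds to doxycycline. Every library came from 1 group, given scrambled siRNA by lipid transfection with PLK4 not induced, so no treatment could be compared. The study as a whole concerns PLK4-driven centriole overduplication and the RNA-binding protein Unkempt. The labels do not say whether the libraries came from separate cultures, so the spread between them may be technical.

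E2F proteins bind the promoters of genes needed for DNA replication and cell division. E2F1, E2F2 and E2F3 mainly activate them, E2F4 and E2F5 mainly repress them in complex with pocket proteins, E2F6 represses through Polycomb partners, and E2F7 and E2F8 repress without a DP partner or a pocket protein. RB1, RBL1 and RBL2 bind E2Fs until cyclin-dependent kinases phosphorylate them, and RBL1 or RBL2 with E2F4 or E2F5, DP and the MuvB core form the DREAM repressor.

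The libraries held between 46625774 and 60040029 counts. CPM is the usual read count scaled to the library total, adjusted by the TMM factor, RPKM is CPM per kb of annotated exon, and a gene was detected when it reached 1 CPM in each library. The spread of a gene was compared with counting error by a chi-square test over 16293 genes with Benjamini-Hochberg adjustment, and genes with an adjusted p under 0.05 are said to be called. Library 1 stood farthest from the other libraries in 66.4% of all called genes. Of 10 fixed pigment epithelium markers 5 were detected, led by OTX2 at 5.47 ± 0.239 RPKM (SD, n = 3), while TYR and TTR had 0 counts. Also below detection were RPE65 (8, 6 and 0 counts in libraries 1, 2 and 3), RLBP1 (1, 7 and 3) and LRAT (8, 29 and 22). The epithelial markers EPCAM, CDH1, KRT5 and KRT20 were all below detection, as were the liver markers ALB and APOA1. All 4 mesenchymal and matrix markers were detected, led by VIM at 1518 RPKM, and so were SYT1 (13.9 RPKM) and SNAP25 (2.09 RPKM) of 3 neuronal markers and PTPRC (0.225 RPKM) of 4 blood markers.

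The promoters show one way in which these genes differ. RefSeq windows on GRCh38.p14, from 250 bases before to 50 after a transcription start, were matched for 8 of the 10 genes (E2F1, E2F2, E2F3, E2F4, E2F6, E2F7, RBL1 and RBL2) and searched on both strands for the E2F letters TTTCCCGC, TTTGGCGC, TTTCGCGC and TTTGCCGC. At least 1 match was present in E2F1, E2F2, E2F3 and RBL1, or 4 of 8 genes, against 3.99% of 27305 genes and 3.31% of 35116 windows. The last 80 bases before the start are shown for these 4 and for E2F7, the most abundant E2F transcript here, with E2F matches in capitals.
E2F1, chr20:33686386-33686465, minus strand: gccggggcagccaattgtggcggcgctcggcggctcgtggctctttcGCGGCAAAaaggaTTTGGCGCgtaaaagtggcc
E2F2, chr1:23531234-23531313, minus strand: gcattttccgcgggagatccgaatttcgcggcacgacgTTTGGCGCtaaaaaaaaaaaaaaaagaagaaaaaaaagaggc
E2F3, chr6:20401799-20401878, plus strand: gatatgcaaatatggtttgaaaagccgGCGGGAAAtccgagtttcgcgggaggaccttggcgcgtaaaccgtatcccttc
RBL1, chr20:37095998-37096077, minus strand: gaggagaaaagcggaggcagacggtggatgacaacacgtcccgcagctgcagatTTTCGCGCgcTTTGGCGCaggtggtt
E2F7, chr12:77065570-77065649, minus strand: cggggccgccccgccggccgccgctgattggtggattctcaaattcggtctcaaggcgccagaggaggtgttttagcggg
The matches began 33 and 20 bases before the start in E2F1, 42 in E2F2, 53 in E2F3, and 26 and 16 in RBL1, and none of them overlapped another match. E2F3 had a second start, downstream of the first, whose window held no match, and counts per gene do not separate transcripts from the 2 starts. The windows of E2F4, E2F6, E2F7 and both starts of RBL2 held no match to these letters. The letters TTTGAA or TTCGAA, known as the CHR element of late cell cycle promoters, occurred in E2F3 (65 bases before the start) and RBL2 (after the first start), against 19.5% of all genes. A match is a description of letters, not evidence of binding.

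Among the activators, E2F1 was the highest per unit of length and E2F2 was close to the detection limit. E2F1 (ENSG00000101412, chromosome 20, 33675683 to 33686404) reached 22.7, 32.5 and 34.5 CPM in libraries 1, 2 and 3, or 9.08, 12.99 and 13.8 RPKM (mean 11.9 ± 2.51, SD, n = 3). Library 1 was the low one, and its exact Poisson interval at 95% (21.4 to 24.1 CPM) did not meet that of library 2 (31.1 to 34.0). E2F3 (ENSG00000112242, chromosome 6, 20401906 to 20493715) was steadier, with 8.29, 7.54 and 7.44 RPKM and 42.8, 38.9 and 38.4 CPM. E2F2 (ENSG00000007968, chromosome 1, 23506430 to 23531220) had 74, 182 and 125 counts, equal to 1.52, 2.996 and 2.67 CPM or 0.279, 0.549 and 0.490 RPKM. E2F2 was again lowest in library 1 and varied most of the 10 genes, its highest CPM being 1.97 times its lowest. Within libraries E2F1 exceeded E2F2 27.7-fold (log2 ratio 4.79 ± 0.23 SD; 12.7-fold without length) and E2F3 exceeded E2F2 18.3-fold, both in 3 of 3 libraries. E2F1 stood 1.52-fold above E2F3 (log2 ratio 0.60 ± 0.41, 3 of 3 libraries), although E2F3 had more counts (log2 ratio of E2F1 over E2F3 without length, -0.44).

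The canonical repressor E2F4 was nearly constant and far above its closest paralogue E2F5. E2F4 (ENSG00000205250, chromosome 16, 67192169 to 67198918), usually the main E2F of quiescent cells, stood at 47.3, 46.5 and 46.6 CPM or 13.2, 12.99 and 13.01 RPKM (mean 13.1 ± 0.124, n = 3). Its ratio of highest to lowest CPM, 1.02, was the narrowest of the 10 genes. E2F5 (ENSG00000133740, chromosome 8, 85177225 to 85217158) had 186, 261 and 202 counts, or 0.646, 0.725 and 0.728 RPKM, so E2F4 exceeded it 18.7-fold in 3 of 3 libraries (log2 ratio 4.22 ± 0.11), or 11.3-fold without length. On the opposite strand C8orf59 covers 16.3% of the E2F5 exon length and stood at 25.6, 28.8 and 29.7 CPM. The strand setting of the counting is not given in the sources used here, so reads of that gene and of E2F5 cannot be told apart there. E2F6 (ENSG00000169016, chromosome 2, 11444375 to 11466177) was between them, with 5.00, 4.83 and 4.68 RPKM, and E2F4 exceeded it 2.70-fold in 3 of 3 libraries. The E2F3, E2F4 and E2F6 genes have 7 pseudogenes in the table, of which only E2F3P2 had any count, 2 in library 2.

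The atypical repressor E2F7 was the most abundant E2F transcript, and E2F8 was much lower. E2F7 (ENSG00000165891, chromosome 12, 77021247 to 77065580) reached 199, 158 and 148 CPM, or 31.6, 25.04 and 23.5 RPKM (mean 26.7 ± 4.29, n = 3). That level exceeded 87.2% of the 11508 detected protein-coding genes. E2F8 (ENSG00000129173, chromosome 11, 19224063 to 19241620) stood at 9.79, 8.10 and 7.35 CPM, or 2.36, 1.96 and 1.78 RPKM, above 22.1% of those genes. Both were highest in library 1, the reverse of E2F1 and E2F2. The pair kept almost the same proportion in each library, with E2F7 13.1-fold above E2F8 (log2 ratios 3.74, 3.68 and 3.72), or 19.96-fold without length.

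Of the 2 pocket proteins listed, RBL2 exceeded RBL1, and both lay below RB1. RBL2 (ENSG00000103479, chromosome 16, 53433977 to 53491649), the pocket protein that builds up in resting cells, stood at 62.5, 63.6 and 61.0 CPM or 8.53, 8.69 and 8.33 RPKM (mean 8.52 ± 0.177, n = 3). RBL1 (ENSG00000080839, chromosome 20, 36996349 to 37095995), which is itself known as an E2F target, stood at 25.4, 26.0 and 29.4 CPM or 4.27, 4.36 and 4.93 RPKM. RBL2 was thus higher in 3 of 3 libraries, with a log2 ratio of RBL1 over RBL2 of -0.92 ± 0.14. RB1, the retinoblastoma gene, reached 117, 126 and 144 CPM (19.99 ± 2.08 RPKM) and exceeded RBL1 4.41-fold and RBL2 2.34-fold in every library. Of the summed RPKM of the 3 pocket proteins, RB1 held 60.4 ± 2.04%, RBL2 25.9 ± 2.15% and RBL1 13.7 ± 0.271% (n = 3). On the opposite strand AKTIP covers 8.33% of the RBL2 exon length (12.4, 12.3 and 13.7 CPM), and no shared exon on the same strand was found for any of the 10 genes.

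**Figure D1:**
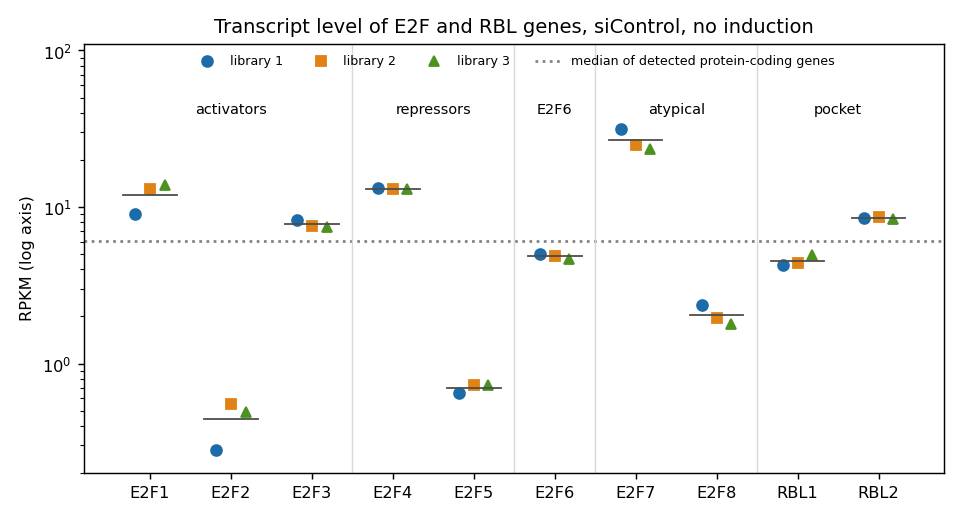
RPKM on a log axis (1 point per library, horizontal line at the mean) for the 10 genes grouped by role, with the median of detected protein-coding genes, 6.09 RPKM, dotted. E2F7 lies highest in each library, between 23.5 and 31.6, and E2F2 lowest, between 0.279 and 0.549.

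In order of mean RPKM the genes ran E2F7, E2F4, E2F1, RBL2, E2F3, E2F6, RBL1, E2F8, E2F5 and E2F2, with a median of 6.30 RPKM against 6.09 for detected protein-coding genes. Not every neighbour in that order was separated. E2F4 exceeded E2F1 in library 1 only (log2 ratios 0.54, -0.00031 and -0.083), and E2F6 exceeded RBL1 in 2 of 3 libraries (0.23, 0.15 and -0.07). The other neighbours kept their order in 3 of 3 libraries, the closest being RBL2 over E2F3 at 1.10-fold (log2 ratio 0.14 ± 0.08) and the next E2F1 over RBL2 at 1.38-fold. With the longest transcript as the length, RBL2 (12.7 RPKM) passed E2F1 (11.9), and the other positions did not change. E2F4 then stood 1.52-fold above E2F1, and 1.59-fold without length, in each library under both settings. With no length, by CPM, the order from the top became E2F7, RBL2, E2F4, E2F3, E2F1, RBL1 and E2F6, with E2F1 at 0.472 times RBL2 and E2F6 at 0.732 times RBL1, and the last 3 places stayed the same. For the 12 fixed pairs the two-sided exact sign-flip test could give no p below 0.25, and 11 pairs reached that value (adjusted over 12 pairs, 0.273) while E2F4 over E2F1 gave p = 1.

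By class, E2F7 and E2F8 held the largest part of the summed RPKM of E2F1 to E2F8. Their share was 48.2%, 40.5% and 38.6% in libraries 1, 2 and 3 (mean 42.4 ± 5.05%, n = 3). The activators E2F1 to E2F3 held 25.1%, 31.6% and 33.2%, E2F4 and E2F5 together 19.7%, 20.6% and 21.0%, and E2F6 7.10%, 7.25% and 7.16%. The atypical share was thus higher and the activator share lower in library 1 than in either other library, while E2F6 stayed between 7.10% and 7.25%. Single genes carried this: E2F1 held 12.9%, 19.5% and 21.1%, but E2F3 11.8%, 11.3% and 11.4%, highest in library 1. E2F7 alone held a mean of 39.4%. The ratio of activator to atypical RPKM, chosen after the values were seen, was 0.520, 0.781 and 0.859.

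**Figure D2:**
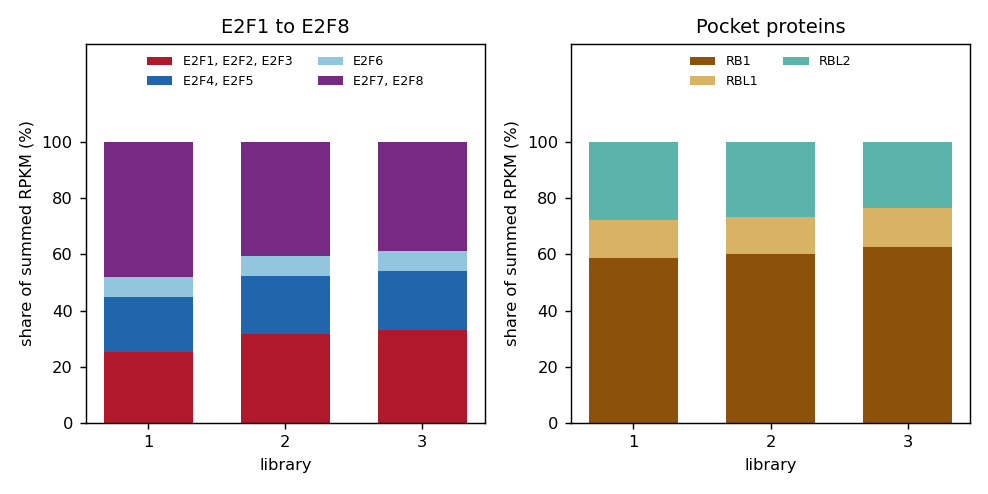
Stacked bars give the share of summed RPKM (%) in each of the 3 libraries, on the left for E2F classes and on the right for RB1, RBL1 and RBL2. The part of E2F7 and E2F8 is 48.2% in library 1 and 38.6% in library 3, and RB1 holds between 58.6% and 62.6% of the pocket protein sum.

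The libraries differed in 6 of the 10 genes beyond counting error, a share near the background of 68.6% of all genes tested. Among all genes detected the share was 75.6%. The called genes were E2F7 (adjusted p = 1.1e-91), E2F1 (8.3e-28), E2F2 (8.5e-06), E2F8 (0.000294), RBL1 (0.000537) and E2F3 (0.00162) by the chi-square test. E2F1, E2F2 and RBL1 were lowest in library 1 (3 of 10, background 33.4%), and E2F3, E2F7 and E2F8 were highest there (3 of 10, background 27.9%). E2F4 (adjusted p = 0.831), E2F5 (0.453), E2F6 (0.3996) and RBL2 (0.288) did not pass. The median ratio of highest to lowest CPM was 1.14 in the 10 genes, 1.246 in all genes tested and 1.19 in all genes detected. The genes tested include genes below detection, which all 10 are above.

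When an extra coefficient of variation of 0.05 was allowed for each gene, E2F1, E2F2, E2F7 and E2F8 were still called (4 of 10, background 32.7%), and E2F3 and RBL1 were not (adjusted p = 0.438 and 0.253). Without library 1, E2F7 (adjusted p = 0.000463) and RBL1 (0.00509) were called (2 of 10, background 28.1%). E2F1 (adjusted p = 0.187), E2F2 (0.505), E2F3 (0.808) and E2F8 (0.323) were not, so those 4 calls rested on library 1. RBL1 rested on library 3, and without it gave an adjusted p of 0.447. Whether the state of the cells or the preparation set library 1 apart was not tested.

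**Figure D3:**
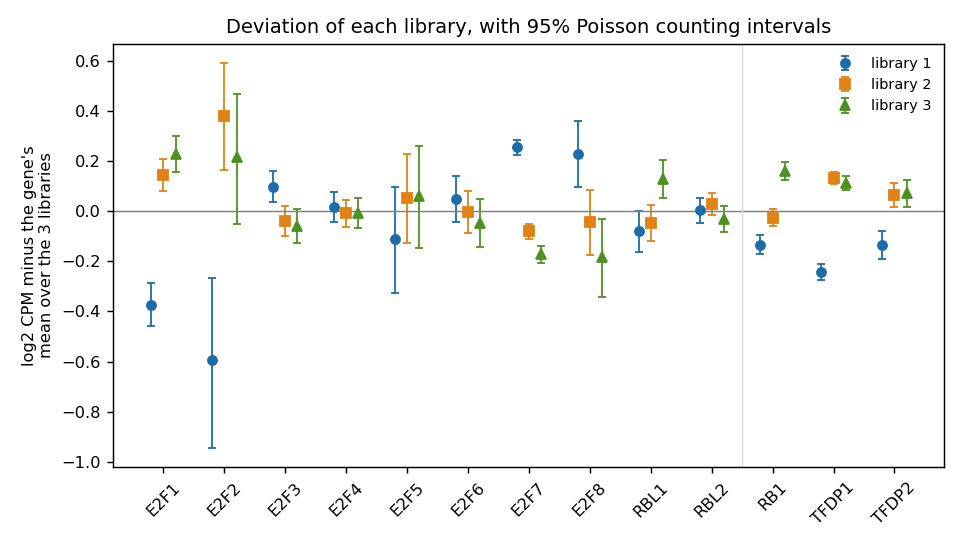
Each point is the log2 CPM of a library minus the mean of that gene over the 3 libraries, with the exact 95% Poisson interval of its count, for the 10 genes and for RB1, TFDP1 and TFDP2. Library 1 lies lowest for E2F1, E2F2 and TFDP1 and highest for E2F7 and E2F8, while the 3 intervals overlap for E2F4, E2F5, E2F6 and RBL2.

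E2F1 to E2F6 bind DNA as dimers with a DP protein, and TFDP1 was the main one. TFDP1 reached 168, 218 and 216 CPM (53.7 ± 7.51 RPKM, n = 3), 4.08-fold above E2F4 in 3 of 3 libraries. TFDP2 stood at 50.8, 58.3 and 58.5 CPM (4.70 ± 0.371 RPKM), 11.4-fold below TFDP1 per length and 3.57-fold without length, and TFDP3 had 0 counts. Summed RPKM of TFDP1 and TFDP2 was 1.35, 1.596 and 1.56 times that of E2F1 to E2F6, a ratio chosen after the design was fixed. Both DP genes were called and lowest in library 1 (adjusted p = 6.1e-85 for TFDP1 and 9.8e-08 for TFDP2), beside 33.4% of all genes tested. With the extra variation allowed in the chi-square test, TFDP1 was called (adjusted p = 0.00349) and TFDP2 was not (0.216), beside a background of 32.7%. Neither was called without library 1 (background 28.1%).

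The MuvB core, which is part of DREAM, was listed with MYBL1, MYBL2 and FOXM1, which are not. All 8 genes of this list were detected (median 10.1 RPKM, against 5.54 for all detected genes). Of these, 7 of 8 were called, beside 68.6% of all genes tested and 75.6% of all genes detected, and 3 with the extra variation allowed (background 32.7%). FOXM1, which drives late cell cycle genes after DREAM is released, was highest at 87.8 ± 6.27 RPKM. LIN37, a MuvB subunit needed for repression, was lowest at 1.75 ± 0.386 RPKM and the widest of the called genes (3.79, 5.96 and 5.04 CPM, adjusted p = 8.7e-06), although other genes overlap 26.7% of its exons on the same strand and 41.8% on the opposite one. Of 10 genes of the Polycomb complex that holds E2F6, 9 were detected, with a median of 7.84 RPKM. In the spread test 9 of 10 were called, beside 68.6% of all genes tested, and 4 with the extra variation allowed (background 32.7%). CBX3 led at 31.1 ± 1.92 RPKM and YAF2 was lowest detected at 1.30 ± 0.133. MGA, the scaffold of that complex, was below detection with 0.721, 1.15 and 0.748 CPM, and was among the 9 called.

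Upstream of the pocket proteins, 13 of 15 G1 cyclin, kinase and inhibitor genes were detected, with a median of 21.2 RPKM. Of the 13 tested 12 were called (background 68.6% of genes tested and 75.6% of genes detected). Of these, 6 were lowest in library 1 (background 33.4%) and 5 were highest there (background 27.9%). With the extra variation allowed, 5 of the 13 were called (background 32.7%). CDKN1A, which encodes the kinase inhibitor p21, was highest at 697 ± 53.9 RPKM, and CDK6 was the lowest detected at 2.41 ± 0.232. CCNE1 lay close to CDK6 at 2.45 ± 0.188 RPKM, and by mean CPM CCNE1 was lower (6.24 against 29.6). CCND2 had 0 counts in each library, and CDKN1C had 0.165 and 0.214 CPM in libraries 2 and 3 and 0 counts in library 1. CCND3, a D-type cyclin that activates CDK4 and CDK6, varied most among the called genes (65.5, 98.0 and 96.8 CPM, adjusted p = 4.8e-84). All 14 corepressors and coactivators of E2F and pocket proteins were detected (median 6.55 RPKM), from HDAC1 (24.1 ± 0.605) to ARID4A (3.98 ± 0.218). That order depends on length: by mean CPM HDAC2 (195) was above HDAC1 (95.6), and SUV39H1 (19.4) was below ARID4A (30.2). Of these 14 genes 11 were called (78.6%, against 68.6% of genes tested and 75.6% of genes detected), and 0 with the extra variation allowed (background 32.7%). SUV39H1, a histone methyltransferase that binds RB1, was the widest of them (18.01, 18.6 and 21.6 CPM, adjusted p = 0.000189), with 20.3% of its exons overlapped on the opposite strand.

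**Figure D4:**
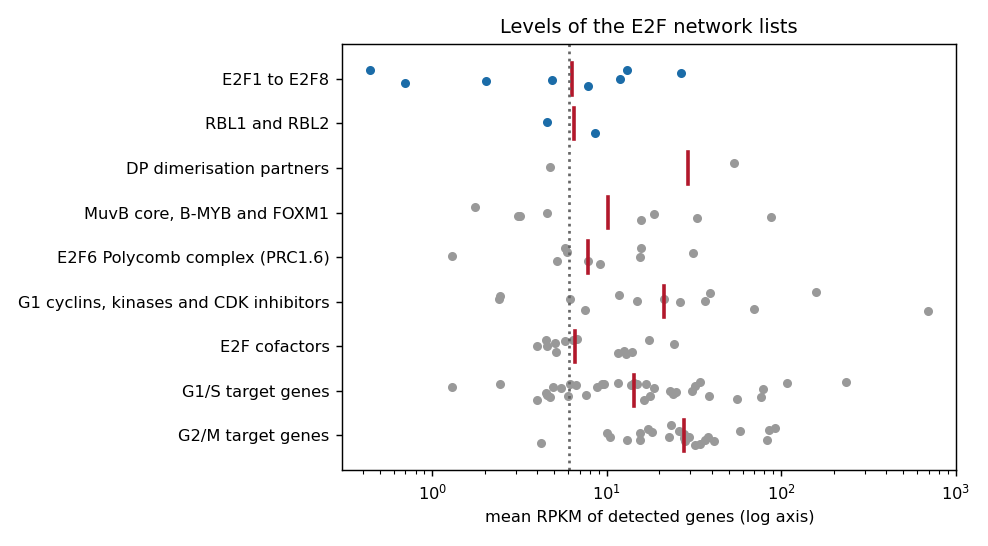
Mean RPKM on a log axis for the detected genes of each list (1 point per gene, red bar at the list median, vertical position within a row arbitrary), with the 6.09 RPKM median of detected protein-coding genes dotted. E2F1 to E2F8 spread from 0.439 to 26.7 RPKM, while the G2/M target list has a median of 27.8 RPKM.

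The downstream genes were expressed throughout. All 35 listed G1/S targets of E2F were detected (median 14.3 RPKM), from PCNA, the replication clamp (236 ± 12.5), to POLA2, a subunit of DNA polymerase alpha (1.30 ± 0.285, with 35.1% of its exons overlapped on the same strand). All 24 listed G2/M targets of DREAM were detected (median 27.8 RPKM), from TOP2A (92.4 ± 9.75) to CDC25C (4.17 ± 0.625), a phosphatase that activates CDK1. In the promoter windows, the E2F letters occurred in 16 of 30 G1/S genes (53.3%) and 2 of 19 G2/M genes (10.5%), against 3.99% of all genes. The CHR letters occurred in 13 of 19 G2/M genes (68.4%) and 5 of 30 G1/S genes (16.7%), against 19.5%. The lists were fixed as known targets, and the windows of all genes were not matched to them in base composition. These shares are therefore a description.

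Library 1 was the low one in most target genes. Of the G1/S targets 29 of 35 were called (82.9%, against 68.6% of genes tested and 75.6% of genes detected), 22 of them lowest in library 1 and 4 highest there, where the backgrounds were 33.4% and 27.9% of tested genes. Of the G2/M targets 23 of 24 were called, 18 lowest and 1 highest in library 1 (95.8% called). The differences were small: the median deviation of library 1 from a gene's mean was -0.07 (log2) for G1/S and -0.13 for G2/M targets, against -0.01 for all genes tested. With the extra variation allowed, 5 of 35 G1/S and 9 of 24 G2/M targets were called, beside a background of 32.7%. The widest were POLA2 (5.71, 8.95 and 7.61 CPM, adjusted p = 2.2e-08) among G1/S and CDC20, the mitotic activator of the anaphase-promoting complex (60.4, 83.7 and 87.8 CPM, adjusted p = 3.2e-59), among G2/M targets.

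Without library 1, 20 of 35 G1/S and 16 of 24 G2/M targets were called, of which 19 and 16 were higher in library 3 than in library 2. Of all genes tested, 28.1% were called and 14.6% in that direction. Of E2F1 to E2F8 only E2F7 was called between libraries 2 and 3, and it was lower in library 3. These lists were compiled with earlier results of the same libraries known, so their direction is a description.

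**Figure D5:**
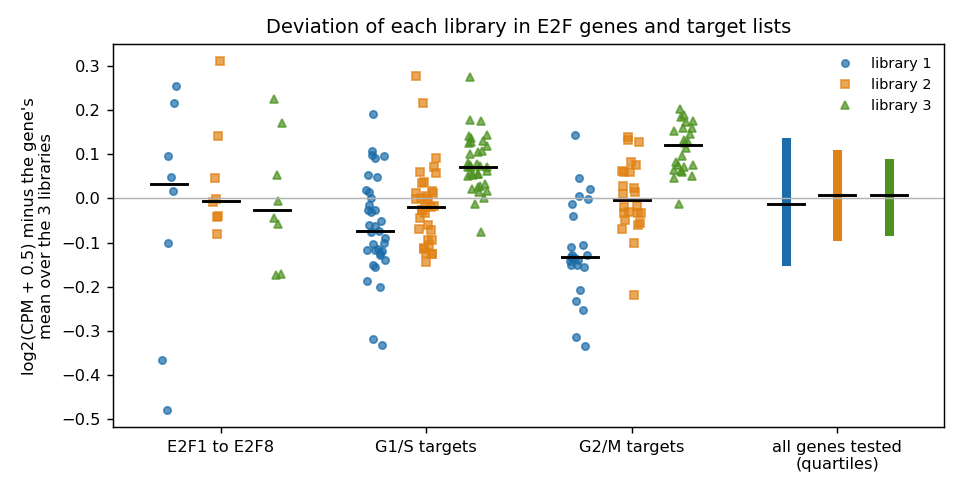
Points are log2(CPM + 0.5) of a gene in a library minus its mean over the 3 libraries, for E2F1 to E2F8, the G1/S and the G2/M targets, with black bars at medians, and vertical bars give the quartiles of all genes tested. The G2/M medians are -0.13 in library 1 and 0.12 in library 3, while the genes E2F1 to E2F8 spread in both directions in library 1.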

How the data were processed

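The authors deposited raw read counts per gene, as whole numbers without normalisation, per the file headers and values. Per the submitters' processing notes, hg38, featureCounts 1.6.2, STAR 2.5.2a and cutadapt 1.16 were used. No source used here gives their settings or strand handling. The table held 6 further columns of per-sample values that no label here matched; they were left aside. All 58735 identifiers matched GENCODE release 29, which gave positions and lengths. Library sizes were scaled by TMM with edgeR 4.0.16 in R 4.3.3, and RPKM used the union of annotated exons. The chi-square test had 2 degrees of freedom, was run where the mean count reached 10, and was tried on simulated Poisson counts. Those counts hold no spread between unchanged libraries beyond counting error, so the trial does not give the rate of false calls in these libraries. The test compares the libraries with counting error alone. The upper limit behind 0 counts is 3, equal to 0.0494 to 0.0641 CPM. Pair ratios used a pseudocount of 0.5 counts and deviations 0.5 CPM. DESeq2 1.42.0 gave alternative size factors. A planned protein comparison was not made. The genes and lists were chosen with earlier results of these data known. Genes named from a list were its highest and lowest detected members, those below detection and the called member with the widest CPM ratio.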

Additional observations from a re-analysis of the deposited data

How the results depend on the processing

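DESeq2 size factors, unscaled totals and testing every gene with a count left 6 of the 10 genes called and all genes called at 11184, 11289 and 12736. With an extra coefficient of variation of 0.05, 5322 of all genes were called. Leaving out 1 library at a time gave 4581 to 10016 called genes overall and 2 to 6 of the 10, the lowest in each case without library 1. Of 108 other listed genes 104 were detected, or 105 at 0.5 CPM. Without length the log2 ratio of E2F1 over E2F3 turned to -0.44, and leaving out 1 library gave -0.041 to 0.27 for E2F4 over E2F1. That of E2F4 over E2F1 was 0.607 with the longest transcript and 0.670 without length. With no length, the class shares were 22.8% for activators, 16.0% for E2F4 and E2F5, 6.17% for E2F6 and 55.0% for E2F7 and E2F8. With the longest transcript, E2F4 and E2F5 held 24.3% and E2F6 7.41%. RBL1 held 10.7% of the pocket proteins with the longest transcript and 12.3% without length, and RBL2 28.8% and 28.7%. The DP to E2F ratio became 1.79 under both, and activators over atypical 0.419 without length. No paired analysis was possible because there was only 1 group. Precision was limited by 3 libraries and, for E2F2 and E2F5, by counts below 300.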
